A study of Mus musculus with 16 samples.

Results

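Growth hormone acts on the liver through a short and well known chain of genes, and the transcripts of 10 of them were followed here in the livers of obese mice given a glucagon receptor agonist. The 10 genes were the rows of the deposited table that map to the receptor Ghr, its kinase Jak2, the transcription factors Stat5a and Stat5b, the feedback inhibitors Socs2 and Cish, the secreted factor Igf1 and its plasma partner Igfals, and the regulators Bcl6 and Onecut1. All 10 were found among the 55487 genes of the table, and all 10 passed the filter on low values (a mean of at least 1 scaled TPM), Socs2 by a small margin. The growth hormone dependent major urinary protein genes (Mup genes, 22 in the table) were set beside them.

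The 16 mice were male C57BL6/J, put at 10 weeks of age on a diet with 60 kcal% fat for 8 weeks and then housed singly. For 22 days each mouse had a daily subcutaneous injection at 9 am of vehicle or of G108, a long-acting glucagon analogue (2.5 nmol/kg). Their fatty diets held either the usual amount of protein (the SP diet) or more of it (the HP diet), so that 2 treatments and 2 diets gave 4 groups of 4 mice, with 1 liver library per mouse. The labels place the cull on day 25 after a 4 h fast. The methods of the study instead give a younger starting age, a shorter time on the 60 kcal% fat diet and an earlier end. They also place the mice on their SP or HP diets, themselves high in fat, for 2 weeks before the injections began.

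As background, growth hormone binds its receptor on hepatocytes, the receptor-bound kinase JAK2 phosphorylates STAT5, and STAT5 enters the nucleus and switches on genes that include Igf1, Igfals, Socs2 and Cish. The proteins of Socs2 and Cish then damp the receptor. BCL6 is a repressor that can occupy the DNA sites of STAT5, and Onecut1 encodes HNF6, a liver transcription factor that growth hormone can induce. Male rodents secrete the hormone in pulses, and male livers make large amounts of the urinary proteins under that pattern.

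Values are given as scaled TPM, which are the deposited TPM (a length-corrected share of all transcripts of a library) divided by a factor for each library, so that most genes keep the same level between libraries. This step mattered, since the Mup transcripts took a mean of 45.3% of all deposited TPM in vehicle SP mice and 20.2% in G108 SP mice, and every other transcript of a library takes a larger share when they fall. The factors ran from 0.681 to 0.964 in vehicle SP mice and from 1.17 to 1.54 in G108 SP mice, so they did not overlap. Depth was between 27.8 and 45.0 M reads (M, 1000000) per library, as recovered from the steps of low TPM values. Depth was lower in G108-treated mice, with medians of 29.7 M reads on SP and 31.2 M on HP against 40.4 and 37.2 M with vehicle.

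The tissue was checked against marker genes of the liver's cell types. Hepatocyte markers summed to between 40140 and 48853 scaled TPM in every mouse, whereas those of bile duct cells stayed under 1.82 and those of fat cells under 1.24. Kupffer cell markers ranged from 60.0 to 75.4 scaled TPM in vehicle SP mice and more widely, from 32.2 to 92.3, in G108 SP mice. Endothelial markers summed to 21.2 to 25.9 in vehicle SP and 16.6 to 19.6 in G108 SP mice, without overlap, and their part in the differences was not tested. None of the 7 Kupffer, 5 endothelial, 3 stellate or 5 blood cell markers tested passed in any comparison. Since these are whole-tissue libraries, fewer cells of a type and less RNA per cell cannot be told apart.

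The 10 genes lay at very different levels. The TPM are set per exon length of each gene, which is not the length of a single transcript, so the order between genes is only approximate. Igf1 averaged 38.8 scaled TPM over the 16 mice, Ghr 36.4, Igfals 28.1, Onecut1 5.82 and Stat5b 5.75. Bcl6 averaged 3.96, Cish 3.07, Jak2 1.71, Stat5a 1.39 and Socs2 1.04. Neighbours in this order overlapped in their ranges over mice, except Igfals and Onecut1. Igf1, at 33.7 to 51.8, Ghr, at 29.4 to 43.2, and Igfals, at 18.2 to 35.4, overlapped each other and lay above all values of the other genes. Onecut1, at 0.850 to 13.3, overlapped every gene listed after it. Stat5b overlapped Bcl6 and Cish, and Jak2, Stat5a and Socs2 overlapped each other.

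They differed as much in how far single mice varied. Ghr, Igf1 and Stat5b were the most even, with the highest mouse at 1.47, 1.54 and 1.58 times the lowest. The ratio was 1.89 for Jak2, 1.95 for Igfals and 2.21 for Stat5a. Onecut1 spanned 15.7-fold, Cish 15.3-fold, Bcl6 8.34-fold and Socs2 8.29-fold. Within groups, the SD of Onecut1 on the log2 scale was 0.98 against a median of 0.21 over all 11749 genes tested, which put it at percentile 99.2 of those genes. Cish stood at percentile 95.6, Bcl6 at 93.9 and Socs2 at 80.0, while Jak2 was at 9.28, Stat5b at 12.6, Ghr at 21.4 and Igf1 at 39.0. This SD is of log2(scaled TPM + 1), which narrows the spread of low genes such as Jak2 and Socs2. Behind the values of the feedback inhibitors stood 88 to 1334 reads per mouse for Cish and 85 to 637 for Socs2.

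**Figure D1:**
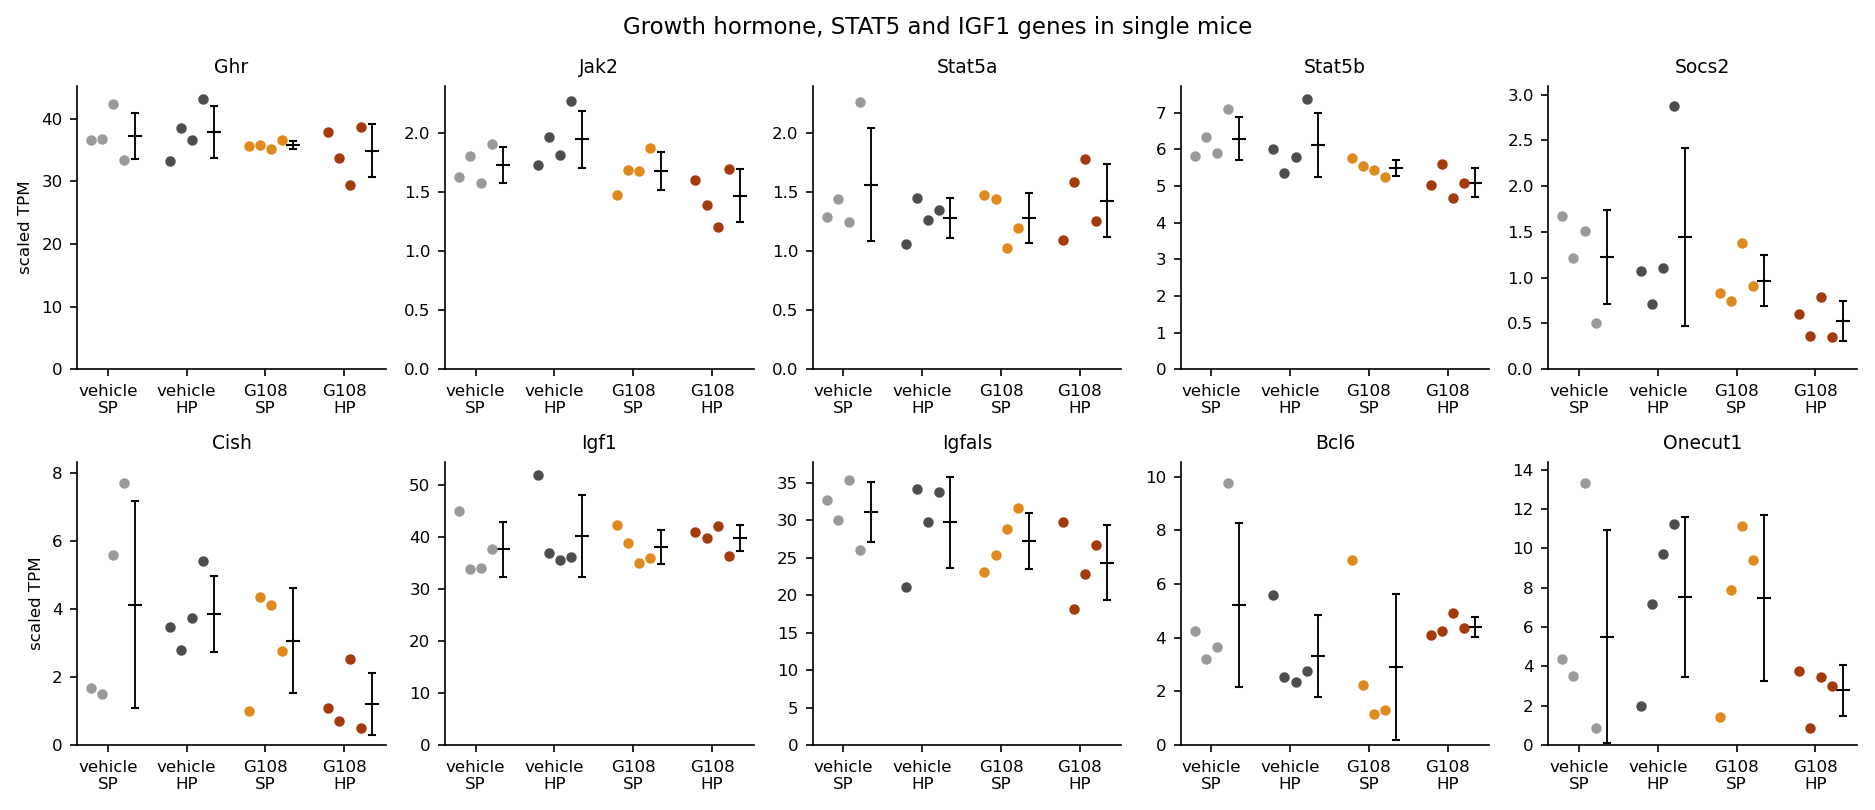
Scaled TPM (vertical axes, starting at 0) of the 10 genes in each of 16 mice, grouped by treatment and diet along the horizontal axes; points are single mice, and the black dash and bar beside them are the group mean and SD (n = 4). Ghr and Igf1 sit at even heights in all 4 groups, while Cish, Socs2, Bcl6 and Onecut1 scatter widely between mice of a group.

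The first question was whether G108 changed the transcripts of the chain in mice on the standard protein diet. These data hold RNA only, so signalling through the chain was not measured. None of the 10 transcripts passed the test (limma, Benjamini-Hochberg adjusted p over 11749 genes), where 2.75% of all genes did. The lowest adjusted p among the 10 was 0.291, for Bcl6 (limma). Their median log2 difference was -0.15, against -0.01 over all genes tested. At an unadjusted p under 0.05 there were also 0 of the 10, against 17.7% of all genes.

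Igf1, the main endocrine product of growth hormone action on the liver, differed little between treatments. It read 44.9, 33.7, 33.9 and 37.6 scaled TPM in the vehicle SP mice. In G108 SP mice it read 42.2, 38.8, 35.0 and 36.0, so the groups overlapped throughout. The log2 difference was 0.02, with a 95% interval from -0.25 to 0.29, and the means were 37.6 ± 5.23 and 38.0 ± 3.25 (SD, n = 4). Igf1 lies at chr10:87858265-87937042 (GRCm38), on the plus strand.

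Ghr, which encodes the receptor and lies at chr15:3317760-3583492 on the minus strand, was as even. Its levels in vehicle SP mice were 36.6, 36.7, 42.3 and 33.4 scaled TPM. The G108 SP mice fell within a narrow band at 35.5, 35.7, 35.1 and 36.6. The log2 difference was -0.05 (95% interval -0.28 to 0.17). Jak2, the receptor's kinase (chr19:29251828-29313080, plus strand), averaged 1.73 ± 0.155 scaled TPM with vehicle and 1.68 ± 0.162 with G108, a log2 difference of -0.03.

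Of the STAT5 pair, Stat5b is the form that prevails in male liver. It was the only gene of the 10 whose vehicle SP and G108 SP mice did not overlap, where 4.77% of all genes were lower without overlap. Vehicle SP mice had 5.80, 6.35, 5.89 and 7.09 scaled TPM. G108 SP mice had 5.77, 5.54, 5.43 and 5.25, each under the lowest vehicle mouse by a small margin at least. The difference of -0.16 on the log2 scale did not pass the test (SE 0.09, adjusted p = 0.357, limma). Stat5b lies at chr11:100780731-100850724 on the minus strand, next to Stat5a at chr11:100859351-100885169 on the plus strand.

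Stat5a averaged 1.56 ± 0.476 scaled TPM in vehicle SP mice and 1.28 ± 0.212 in G108 SP mice. Vehicle SP mouse 4, at 2.26, lay above all the others, which ran from 1.02 to 1.77. The STAT5 genes share 836 stretches of 31 bases in their exons, 15.1% of those of Stat5b and 11.5% of those of Stat5a, so that some reads could have come from either.

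Cish encodes the cytokine-inducible inhibitor CIS, and lies at chr9:107296026-107302784 on the plus strand. Its promoter is shown because the gene is a classical STAT5 target and was among the most variable of the 10. STAT5 binds the palindrome TTCNNNGAA, which reads the same on both strands, so 1 search covers both. In the RefSeq promoter windows of 300 bases (250 before the start, GRCm38.p6) this motif was present in 8.3% of 32851 windows. Of the 10 genes, 9 were in the table, with 15 windows, and the motif lay in 5 windows of 3 genes, namely Cish, Bcl6 and Igfals. The 14 Mup windows held none. In the sequences below, read 5′ to 3′ on each gene's own strand, capitals mark the motif.
Cish, chr9:107296654-107296683: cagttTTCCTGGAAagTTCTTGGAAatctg
Igfals, chr17:24878153-24878201: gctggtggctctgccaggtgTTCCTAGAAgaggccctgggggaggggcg
Bcl6, chr16:23981343-23981471: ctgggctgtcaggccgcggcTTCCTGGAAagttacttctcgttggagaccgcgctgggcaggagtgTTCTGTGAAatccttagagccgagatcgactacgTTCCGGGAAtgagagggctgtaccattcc
Bcl6, chr16:23988942-23988990: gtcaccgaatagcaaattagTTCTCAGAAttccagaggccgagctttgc

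The 2 Cish motifs begin at positions 1 and 12, counted from 1 at the RefSeq start, inside an exon of the gene in GENCODE M21. The Igfals motif begins 58 bases before a RefSeq start and overlaps no exon of the gene. A further Igfals window held TTCTCAGAA 236 bases before another start. In Bcl6, 3 motifs lie 168, 122 and 88 bases before an inner start, and 1 lies 118 bases before the outer start, none of them in an exon. These matches describe the letters only, and binding was not measured.

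On the standard protein diet the Cish level did not separate the treatments. Vehicle SP mice fell into a low pair, at 1.69 and 1.51 scaled TPM, and a high pair, at 5.58 and 7.73. G108 SP mice had 1.02, 4.37, 4.14 and 2.77. The log2 difference was -0.22, with a wide interval from -1.11 to 0.66.

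Socs2, which encodes a suppressor of growth hormone signalling and lies at chr10:95385362-95417180 on the minus strand, read 1.67, 1.22, 1.51 and 0.507 scaled TPM in vehicle SP mice. It read 0.832, 0.750, 1.38 and 0.910 in G108 SP mice. The means were 1.23 ± 0.515 and 0.968 ± 0.282, and the log2 difference of -0.15 lay within the spread.

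Igfals, at chr17:24865997-24882010 on the plus strand, encodes the acid-labile subunit that holds IGF1 in a large complex in plasma. Its vehicle SP mice had 32.7, 30.0, 35.4 and 26.0 scaled TPM. G108 SP mice had 23.1, 25.4, 28.8 and 31.6, lower on average but overlapping, with a log2 difference of -0.18 (95% interval -0.55 to 0.18).

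Bcl6, at chr16:23965052-23988852 on the minus strand, had the largest difference of the 10 on this diet. Vehicle SP mice had 4.25, 3.19, 3.66 and 9.77 scaled TPM. In G108 SP mice, 3 values were below all of these, at 2.23, 1.17 and 1.30, but mouse 1 stood at 6.90. The log2 difference was -0.78 (95% interval -1.58 to 0.02, adjusted p = 0.291, limma). Without G108 SP mouse 1 it became -1.19 and passed the test (adjusted p = 0.0399, limma). Without vehicle SP mouse 4, the highest of its group at 9.77, it shrank to -0.48. The outcome for Bcl6 thus turned on single animals, in either direction.

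Onecut1, at chr9:74861921-74891781 on the plus strand, ran from 0.850 to 13.3 scaled TPM within the vehicle SP group alone, at 4.35, 3.50, 13.3 and 0.850. G108 SP mice had 1.44, 7.89, 11.1 and 9.39. The log2 difference of 0.53 had an interval from -0.82 to 1.87, which is too wide to place the gene.

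The values of the G108 SP group depended on the scale. On the TPM as deposited, 5 of the 10 genes were called higher with G108 on SP (limma), namely Ghr, Jak2, Stat5a, Stat5b and Igf1, but 76.8% of all genes were called higher on that scale. The median log2 difference of all genes was 0.60 as deposited. Igf1 stood at 0.78 (adjusted p = 7.06e-04, limma), Ghr at 0.70 and Stat5b at 0.50 beside that general shift. The means of Igf1 as deposited were 29.9 TPM in vehicle SP and 51.8 TPM in G108 SP mice, beside 37.6 and 38.0 once scaled.

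**Figure D2:**
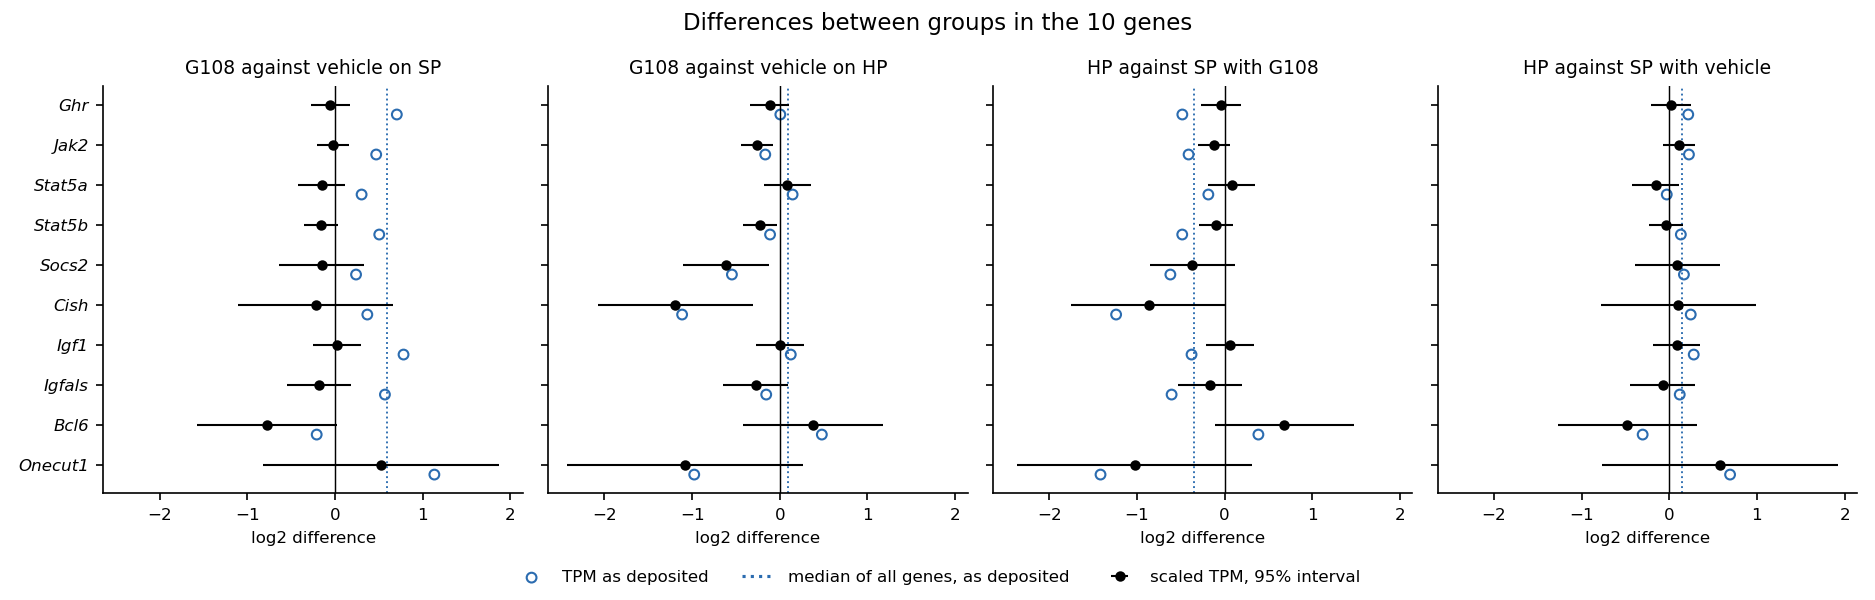
Log2 differences (horizontal axes) of the 10 genes in the 4 comparisons between groups; filled points with bars are scaled TPM with their 95% intervals (limma), open points are TPM as deposited, and dotted lines are the median of all genes as deposited. On SP the open points lie above 0, from 0.24 for Socs2 to 1.13 for Onecut1, except that of Bcl6 at -0.21, while the filled points lie near 0 for Ghr, Jak2 and Igf1.

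With dietary protein supplementation Ghr and Igf1 again differed little between treatments, whereas the feedback inhibitors read lower with G108, short of the test's threshold. Mitochondrial transcripts took 15.2 to 20.7% of the deposited TPM in vehicle HP mice and 20.97 to 37.3% in G108 HP mice, without overlap and highest in G108 HP mouse 3, and their part in the differences was not tested. None of the 10 genes passed (limma), where 1.22% of all genes did, and the lowest adjusted p was 0.214 for Jak2. At an unadjusted p under 0.05 there were 4 of the 10, all lower with G108, against 11.2% of all genes. These were Jak2, Cish, Socs2 and Stat5b, whose unadjusted p ran from 0.00957 to 0.0288 in limma.

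Cish gave the largest difference. Vehicle HP mice had 3.48, 2.79, 3.75 and 5.44 scaled TPM. All 4 G108 HP mice were below them, at 1.09, 0.717, 2.52 and 0.504. The mean with G108 was 0.313 of that with vehicle, at 1.21 ± 0.910 against 3.86 ± 1.12 (SD, n = 4), and the log2 difference was -1.19 (95% interval -2.08 to -0.31, adjusted p = 0.233, limma). Leaving out each of the 16 mice in turn gave differences from -1.44 to -1.04, and in none of them did Cish pass. The difference of -1.44 was the one without G108 HP mouse 3.

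Jak2 was the other gene whose HP groups did not overlap. Of all genes tested, 3.97% were lower without overlap in this comparison. Vehicle HP mice had 1.73, 1.97, 1.81 and 2.28 scaled TPM, and G108 HP mice had 1.60, 1.39, 1.20 and 1.70. The difference was small, at -0.25 on the log2 scale (SE 0.09).

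Socs2 followed Cish in direction but overlapped. It read 1.07, 0.713, 1.11 and 2.88 scaled TPM in vehicle HP mice. It read 0.607, 0.360, 0.792 and 0.347 in G108 HP mice, the lowest group mean of the gene at 0.527 ± 0.214. Its log2 difference of -0.61 (adjusted p = 0.270, limma) shrank to -0.37 at the least when single mice were left out.

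Stat5b averaged 6.12 ± 0.869 scaled TPM in vehicle HP mice and 5.09 ± 0.391 in G108 HP mice, with vehicle HP mouse 2, at 5.35, under the highest G108 HP mouse, at 5.61. Stat5a did not follow it, with 1.28 ± 0.167 and 1.43 ± 0.307, a log2 difference of 0.09.

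In Igf1, vehicle HP mouse 1 had 51.8 scaled TPM and the others 36.9, 35.5 and 36.1. G108 HP mice had 40.8, 39.7, 42.1 and 36.3. The log2 difference was 0.00, with a 95% interval from -0.27 to 0.28.

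Ghr averaged 37.9 ± 4.16 scaled TPM in vehicle HP and 34.9 ± 4.27 in G108 HP mice (log2 difference -0.12, 95% interval -0.34 to 0.11). Igfals averaged 29.7 ± 6.07 and 24.3 ± 4.99, a difference of -0.28 within the spread of the mice.

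The regulators read in opposite directions, and neither passed. Bcl6 had 5.60, 2.54, 2.34 and 2.77 scaled TPM in vehicle HP mice. In G108 HP mice it was closely grouped, at 4.10, 4.23, 4.93 and 4.36, a log2 difference of 0.38. Onecut1 had 1.96, 7.20, 9.73 and 11.2 in vehicle HP mice and 3.78, 0.864, 3.46 and 3.01 in G108 HP mice, a difference of -1.08 with an interval from -2.42 to 0.26.

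Diet alone was compared next, at each treatment. No gene of the 11749, and so none of the 10, passed for HP against SP with G108 (0% called) or with vehicle (0% called) by limma, with 632 (5.38%) and 459 (3.91%) genes at an unadjusted p under 0.05. In G108-treated mice the largest differences were in Onecut1, at -1.03, Cish, at -0.87, and Bcl6, at 0.68 on the log2 scale. The interval for Cish, from -1.75 to 0.02, and that for Bcl6, from -0.11 to 1.48, both reached 0. With vehicle, Igf1 differed by 0.08 (95% interval -0.19 to 0.36), Ghr by 0.02 and Stat5b by -0.04 between diets. The study, which tested counts with DESeq2, does report a few genes that differed between the diets under G108. Many of those were mitochondrial or Mup transcripts. DESeq2 was not run here, and the reason for the lack of calls was not tested. A fit to the recovered reads (voom) also called 0 genes for HP against SP with G108.

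Whether G108 acted differently on the diets was tested with the interaction term. None of the 11749 genes passed (0% called, limma), with 847 (7.21%) at an unadjusted p under 0.05. Among the 10, Bcl6 had the lowest unadjusted p, 0.0446 (limma), with a log2 interaction of 1.16 (95% interval 0.03 to 2.29, adjusted p = 0.576, limma). It was lower with G108 on SP and higher on HP. For Igf1 the interaction was -0.02 (95% interval -0.41 to 0.37), and for Cish -0.97 (95% interval -2.22 to 0.28).

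The Mup transcripts, which encode the lipocalins excreted in urine, read lower in sum with G108 on both diets. Their sum took 49.0, 42.3, 47.4 and 42.3% of deposited TPM in vehicle SP mice. It took 22.4, 18.8, 17.5 and 22.1% in G108 SP mice. On HP the shares were 38.2, 35.2, 40.1 and 44.6% with vehicle, and 29.3, 25.9, 18.0 and 23.1% with G108.

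On the scaled values the Mup sum was 3.85-fold lower with G108 on SP and 1.81-fold lower on HP. No G108 mouse reached a vehicle mouse of its diet in either case. Each had an exact permutation p of 0.0286 (2-sided), the smallest that 4 against 4 mice allow, and 0.0571 after adjustment over the 4 comparisons. Without G108 HP mouse 3 or 4 the exact permutation p on HP was 0.0571 before adjustment, though the groups still did not overlap. The sum was higher by 0.69 on the log2 scale on HP than on SP among G108-treated mice (exact permutation p = 0.0571). The interaction, 1.09, did not pass (permutation p = 0.215). That test relabels treatment within each diet, so its spread also holds the differences with G108 themselves, -1.95 on SP and -0.86 on HP. It therefore cannot decide whether the fall of the Mup sum differed between the diets.

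Since Mup genes are near-identical copies, single genes are uncertain and the count is given for scale only. Of 22, 18 passed as lower on SP and 8 on HP (limma), where 1.41% and 0.587% of all genes were lower. Of those that passed, Mup15 had the largest differences, at -2.89 on SP and -1.27 on HP. Mup20 alone of the 22 had a positive difference on SP, at 0.28 (adjusted p = 0.509, limma). Its means there were 5986 ± 2050 scaled TPM with vehicle and 7068 ± 1444 with G108. On the TPM as deposited it was called higher on SP, at 1.06 (adjusted p = 0.00419, limma), beside the general shift of that scale. On HP it differed by 0.04. Mup4, chosen after its values were seen, read higher on average with G108 on HP, with means of 2.67 ± 3.69 and 21.2 ± 30.8 scaled TPM. The groups overlapped, at 0.220 to 8.07 with vehicle and 3.63 to 67.1 with G108. Its log2 difference of 2.14 did not pass (adjusted p = 0.269, limma). The count on HP was not steady, falling to 0 without any of vehicle HP mice 1, 3 and 4, G108 SP mouse 2 or G108 HP mice 2, 3 and 4, to 2 without vehicle SP mouse 3 or G108 SP mouse 4 and to 5 without G108 HP mouse 1. It was also 0 with no filter or with only the groups compared, and 14 with TPM rescaled without mitochondrial and Mup genes. On SP it stayed between 16 and 18 without any single mouse. For HP against SP with G108 no Mup gene passed, but 21 of 22 read higher on HP, the exception being Mup20, at -0.73. Of the 22, 18 had an unadjusted p under 0.05 (limma), against 5.38% of all genes. For the interaction no Mup gene passed either, with 21 of 22 positive and 19 at an unadjusted p under 0.05 (limma), against 7.21% of all genes.

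**Figure D3:**
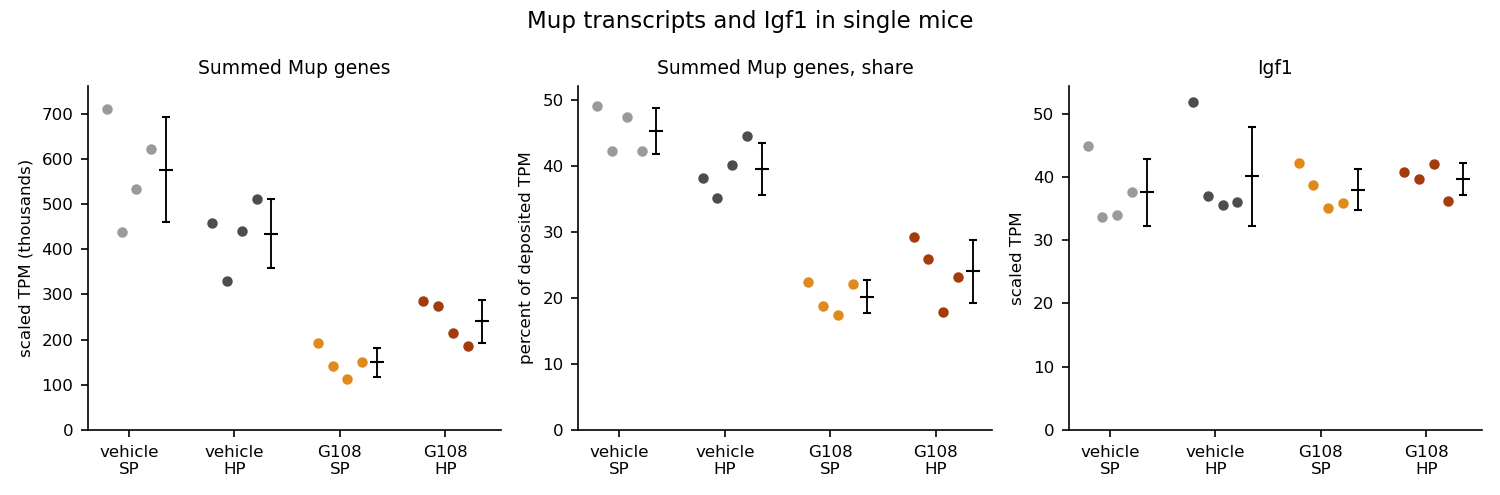
Summed Mup genes in scaled TPM (left, in units of 1000) and as percent of the deposited TPM (middle), with Igf1 in scaled TPM (right), in each of 16 mice; points are mice, and the dash and bar are the group mean and SD (n = 4). Every G108 mouse lies below every vehicle mouse of its diet for Mup, whereas Igf1 groups overlap, with means of 37.6, 40.1, 38.0 and 39.7.

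It was then asked whether mice of a group with less Mup RNA also had less of any of the 10 transcripts. Deviations from the group means were compared over 16 mice, by 100000 permutations within groups. Igf1 had the largest Pearson r, 0.53, with a permutation p of 0.0559 (adjusted 0.440 over 10 relations), a Spearman rho of 0.52 (permutation p = 0.0570, adjusted 0.554) and an r of 0.47 without the 2 mice farthest from the median Mup deviation. For Ghr r was -0.01, for Cish -0.08 and for Socs2 0.17, and none of the 10 relations passed.

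Between themselves, some of the 10 genes moved together from mouse to mouse. These pairs were picked from 45 after their values were seen, and are given as descriptions, over the deviations of 16 mice from their group means. After adjustment over the 45, 1 pair passed by Pearson r, Onecut1 and Igfals, and 0 by Spearman rho (permutation within groups). Onecut1 and Igfals had a Pearson r of 0.81 and a Spearman rho of 0.68, with r between 0.76 and 0.84 whichever mouse was left out and 0.83 on the TPM as deposited. Onecut1 and Bcl6 ran opposite, with r of -0.82 and rho of -0.70, though r came to -0.56 without the 2 farthest mice. The extreme mice show it: vehicle SP mouse 4 had the highest Bcl6 of all, 9.77, and the lowest Onecut1, 0.850, while G108 SP mouse 3 had the lowest Bcl6, 1.17, with Onecut1 at 11.1. Bcl6 and Igfals also ran opposite, at r of -0.64. Ghr and Igfals ran together, with r of 0.71 and rho of 0.74.

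**Figure D4:**
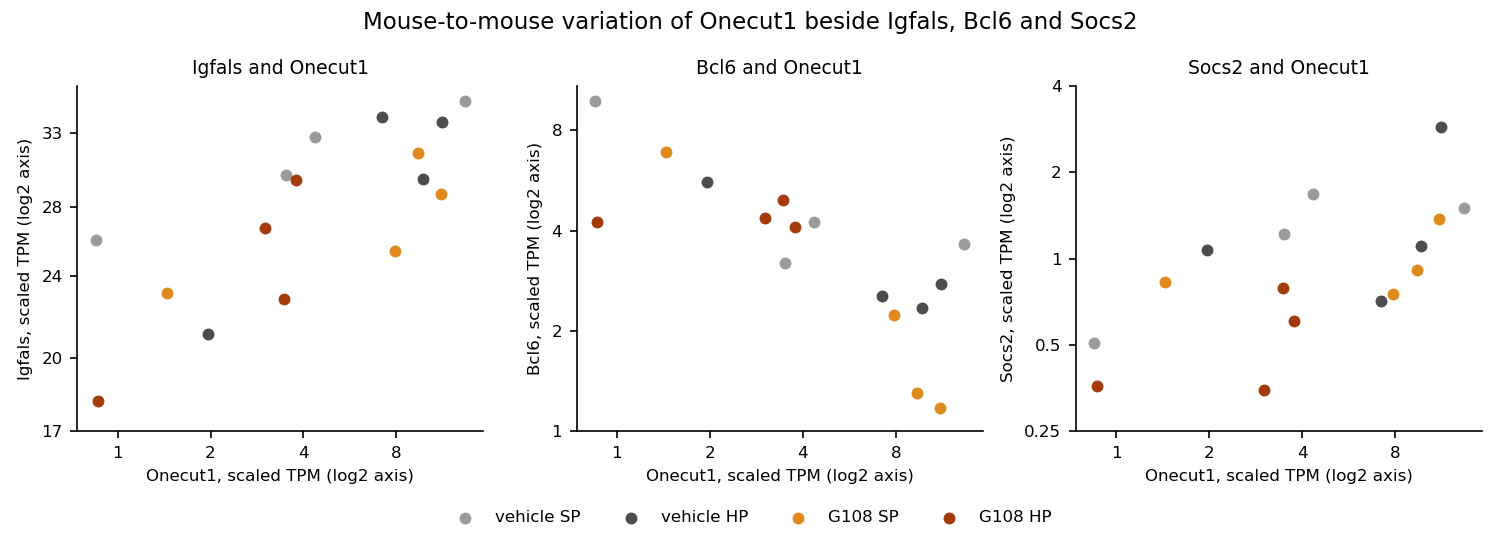
Igfals, Bcl6 and Socs2 (vertical axes) against Onecut1 (horizontal axes) in 16 mice, in scaled TPM on log2 axes, coloured by group. Igfals was higher and Bcl6 lower in mice with more Onecut1, with r of 0.81 and -0.82 on deviations from group means (log2 of scaled TPM plus 1), while r for Socs2 was 0.55.

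Igf1, Socs2 and Cish were also set beside all other genes tested over the 16 mice, by Pearson r as a description that includes the group differences. Most like Cish were Gm17041 (r = 0.99), Foxq1, a forkhead transcription factor (0.94), and A530084C06Rik (0.92). Gm17041 lies antisense to Cish with its 479 exon bases inside the exons of Cish, 7.46% of them. The strand setting of the counting is not given in the sources used here, so reads of Gm17041, which averaged 18.7 scaled TPM, and of Cish cannot be told apart. Gm17041 itself had a log2 difference of -1.66 with G108 on HP (adjusted p = 0.231, limma). Among the genes most like Socs2 were Sash1 (0.89) and Ctdsp2 (0.84), and most like Igf1 were Gm22133, Selenow and Gm10774 (0.87 each).

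A like limit holds for Onecut1. Gm20649, on the same strand, shares 2171 of its exon bases, 52.8%, and averaged 6.13 scaled TPM. Its difference with G108 on HP was -1.08, the same as that of Onecut1 to 2 decimals.

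Genes next to the chain were taken from fixed lists. Of 16 other genes of the IGF system 8 could be tested, and 1 passed, on SP, where 2.75% of all genes did. Igfbp1, a secreted protein that binds IGF1, had 8.04, 4.49, 4.88 and 2.90 scaled TPM in vehicle SP mice. G108 SP mice had 12.9, 9.42, 19.5 and 15.7, all above them, and the rise of 1.36 on the log2 scale passed (adjusted p = 0.00510, limma), but not in a fit of these 2 groups alone (adjusted p = 0.0738, limma). On HP the means were 7.92 ± 1.18 and 12.7 ± 2.02, which did not pass, and on HP none of the 8 passed, beside 1.22% of all genes. The median of the 8 genes was 0.05 on SP and -0.16 on HP.

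Of 26 other genes of cytokine receptor signalling, 20 were tested. Prlr, the prolactin receptor, alone passed, on SP, beside 2.75% of all genes, and none passed on HP, beside 1.22%. On SP Prlr rose by 0.46 on the log2 scale (adjusted p = 0.0232, limma). It had 3.51, 2.93, 3.63 and 2.58 scaled TPM with vehicle and 5.14, 4.41, 4.33 and 4.90 with G108. The call was lost when vehicle SP mouse 2 or 4 or G108 SP mouse 2 or 4 was left out (adjusted p up to 0.0781, limma). The median of the 20 genes was 0.01 on SP and 0.03 on HP.

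Sex-biased liver genes respond to the pattern of growth hormone. Of 22 male-biased genes 19 were tested, with 2 lower and 1 higher on SP and 1 lower on HP, where 2.75% of all genes passed on SP and 1.22% on HP in either direction. At an unadjusted p under 0.05 (limma) there were 9 of the 19 on SP and 10 on HP, in either direction, against 17.7% and 11.2% of all genes. Their median log2 difference was -0.28 on SP and -0.42 on HP, against -0.01 and 0.00 over all genes tested. On the TPM as deposited the median on SP was 0.49, against 0.60 over all genes.

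Selenbp2, a selenium-binding protein, was the most changed of them. It had 227, 80.2, 137 and 112 scaled TPM in vehicle SP mice and 23.1, 31.1, 28.1 and 30.2 in G108 SP mice, a fall of 2.17 on the log2 scale (SE 0.28, adjusted p = 7.79e-04, limma). On HP it had 128, 113, 90.5 and 214 with vehicle and 38.0, 33.1, 25.4 and 34.2 with G108, where it fell by 1.97 (adjusted p = 0.0105, limma). Both calls held without any single mouse.

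Cyp4a12a, a fatty acid hydroxylase, fell by 1.26 on SP (adjusted p = 0.0151, limma), from 35.5, 28.9, 36.9 and 14.96 scaled TPM to 8.96, 9.07, 14.5 and 11.97. That call was lost on the TPM as deposited (-0.53, adjusted p = 0.145, limma) and without vehicle SP mouse 3 or G108 SP mouse 2 (highest adjusted p = 0.0558, limma). Elovl3, a fatty acid elongase, went the other way on SP, at 1.25 (adjusted p = 0.0448, limma), a call lost without any of 12 of the 16 mice (adjusted p up to 0.145, limma).

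Among 22 female-biased genes only 6 were expressed highly enough to test, and 1 passed, on SP, where 2.75% of all genes did. This was Cyp17a1, a steroid hydroxylase, at 13.5, 13.2, 11.2 and 2.62 scaled TPM with vehicle and 20.8, 46.8, 38.8 and 30.7 with G108, a rise of 1.79 on the log2 scale (adjusted p = 0.0323, limma). It did not pass without vehicle SP mouse 3 or 4 or G108 SP mouse 2, 3 or 4 (adjusted p up to 0.115, limma). The median of the 6 was -0.10 on SP.

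**Figure D5:**
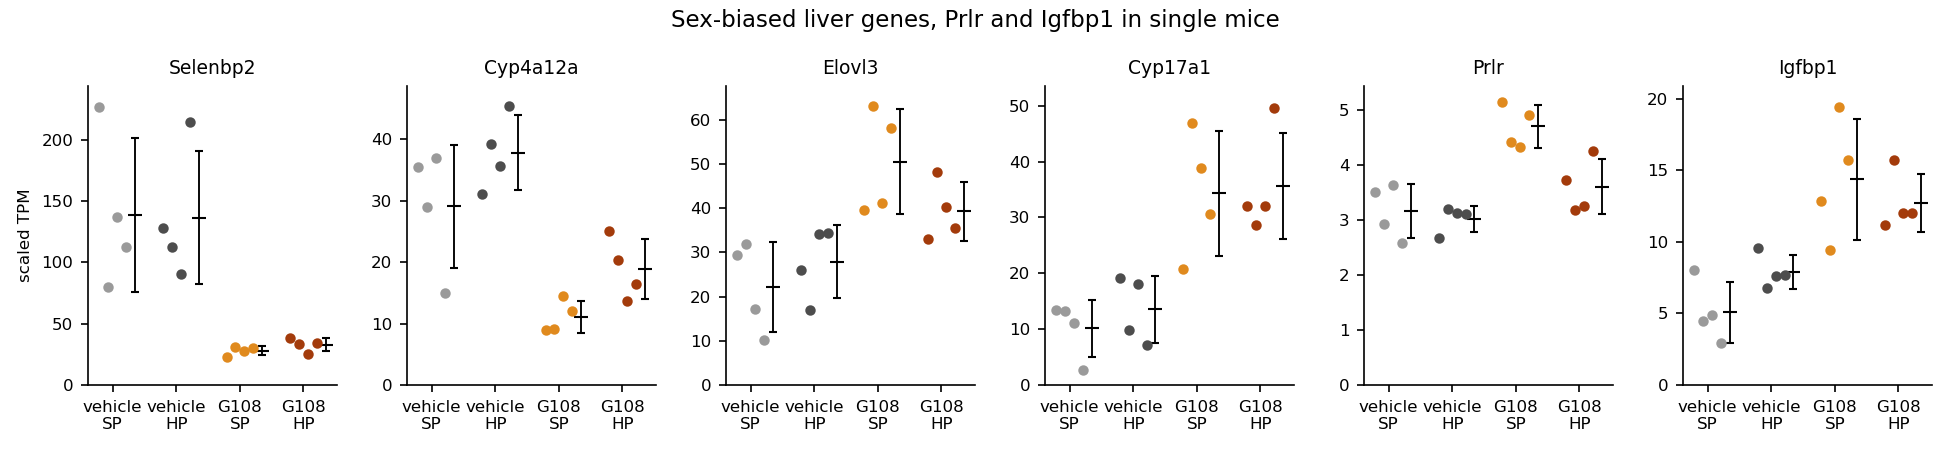
Scaled TPM (vertical axes, starting at 0) of 4 sex-biased liver genes, Prlr and Igfbp1 in each of 16 mice, by group; points are mice, and the dash and bar are the group mean and SD (n = 4). Selenbp2 lies lower in every G108 mouse, at most 38.0, than in any vehicle mouse, at least 80.2.

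None of the 10 tested genes among 16 other regulators of sex-biased liver genes passed on either diet. Of the 12 hepatocyte markers, none passed on SP and 1 on HP, where 1.22% of all genes did. Cyp3a11, a cytochrome P450 of drug metabolism, fell by 2.31 on HP (adjusted p = 0.0201, limma), from 66.8, 50.2, 38.3 and 92.0 scaled TPM to 20.9, 8.14, 9.02 and 9.51. That call was lost without vehicle HP mouse 3 or 4 or G108 HP mouse 2, 3 or 4 (adjusted p up to 0.0922, limma). No gene of any of these lists passed in the diet comparisons or the interaction.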

How the data were processed

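Total RNA of 16 livers was extracted with TRIzol and sequenced by Novogene. The authors checked reads with FastQC 0.11.8, aligned them to GRCm38 with HISAT2 2.0.5, counted them with featureCounts and deposited TPM for 55487 genes, the only values used. The authors tested counts with DESeq2 1.36.0. The strand setting is not given in the sources used here.

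The deposited TPM of each library were divided by a median-of-ratios factor over 11591 genes, giving scaled TPM. Genes with a mean of at least 1 (11749) were tested on log2(scaled TPM + 1) in limma 3.58.1 (R 4.3.3), in a fit of all 4 groups with an intensity trend and Benjamini-Hochberg adjustment, at adjusted p under 0.05. Log2 differences understate changes of low genes. The summed Mup genes were compared by exact permutation.

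Gene symbols came from GENCODE M21 (55227 of 55487 IDs). Whole reads were recovered from TPM steps and exon lengths (98.7% of 139252 low values within 0.02 of a whole read). The number of mice limits precision, and intervals cover the spread between the mice sampled. Scripts were tested on simulated data.

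All 10 members were named in every comparison, Mup genes by their sum and number, and from each other list up to 4 genes with the largest difference among those called. For Igf1, Socs2 and Cish the 3 genes most alike were named, except 1 gene that is not reported here. The members and lists were chosen with earlier results of these data known. The labels give separate mice. Mouse numbers did not pair the samples. Alternatives were the TPM as deposited, TPM rescaled without mitochondrial and Mup genes, a pseudocount of 0.1, no filter, a minimum of 5, only the groups compared, a replicate block, voom on recovered reads and each mouse left out.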

Additional observations from a re-analysis of the deposited data

Results flagged for a closer look

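In 3 of 44 sets of 4 mice, a single mouse stood farther from the others than Dixon's 95% limit allows, and chance alone gives about 1 in 20. Igf1 in vehicle HP mouse 1 was 51.8 scaled TPM, with the next mouse at 36.9. Bcl6 in vehicle SP mouse 4 was 9.77, with the next at 4.25, and Bcl6 in vehicle HP mouse 1 was 5.60, with the next at 2.77. Vehicle SP mouse 4 also had the lowest Onecut1 of the 16 mice (0.850) and the highest Cish (7.73).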

How the results depend on the processing

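Of 50 differences of the 10 genes, 365 values under alternatives other than leaving out a mouse included 347 with the same sign and the same side of the threshold, 17 with the opposite sign and 1 newly called. On the TPM as deposited, signs turned on SP for Ghr (0.70), Jak2 (0.47), Stat5a (0.30), Stat5b (0.50), Socs2 (0.24), Cish (0.37) and Igfals (0.57), and 5 members were called. They also turned for Ghr on HP (0.00596), for Stat5a (-0.18) and Igf1 (-0.38) in HP against SP with G108, for Stat5b (0.13) and Igfals (0.12) with vehicle, and for the interaction of Stat5a (-0.16). With TPM rescaled without mitochondrial and Mup genes, they turned for Ghr (0.00994) and Jak2 (0.0145) on SP and for Igf1 on HP (-0.0729) and in HP against SP with G108 (-0.0738), and the Mup sum in that last comparison was 0.55, with an exact permutation p of 0.0286 before adjustment. The relation to the Mup sum turned on the TPM as deposited for Ghr (0.24), Jak2 (0.11), Stat5a (-0.43) and Igfals (0.10). The cause was not tested, beyond the shift of all genes on the deposited scale.

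Over all genes, 323 were called on SP and 143 on HP. On SP this became 9097 as deposited and 102 with only the groups compared. On HP it became 43 with no filter, 77 with a minimum of 5 and 50 with only the groups compared. With no filter 1 gene was called in HP against SP with vehicle and 1 in the interaction. With the mouse number as a replicate block, 214 genes were called on SP, 17 on HP and 1 in HP against SP with vehicle, and no member. Of the other genes called, Igfbp1, Prlr, Cyp4a12a, Elovl3, Cyp17a1 and the Mup genes on HP did not pass with only the groups compared, Elovl3, Cyp17a1, Cyp3a11 and the Mup genes on HP with no filter, and Prlr, Elovl3, Cyp17a1, Cyp3a11 and the Mup genes on HP with the replicate block, with their signs kept. Correlations of same-numbered mice ran from -0.43 to 0.44, so the numbers did not pair the mice.

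With each mouse left out, genes called ran from 149 to 469 on SP, from 9 to 208 on HP and from 0 to 2 in HP against SP with vehicle, and members called on SP from 0 to 1. For the count on SP the mice that moved it by over 1.5 times were vehicle SP 2 and 3 and G108 SP 2, 3 and 4, and on HP vehicle HP 3 and 4, G108 SP 2 and 4 and G108 HP 2, 3 and 4. Signs turned in 33 of 800 member differences. The ranges on SP were -0.0282 to 0.11 for Igf1, -0.10 to 0.00884 for Ghr, -0.0620 to 0.00946 for Jak2 and -0.50 to 0.10 for Cish, and on HP -0.0483 to 0.13 for Igf1. In HP against SP with vehicle they were -0.17 to 0.43 for Cish, -0.0422 to 0.0832 for Ghr, -0.12 to 0.0162 for Stat5b, -0.15 to 0.24 for Socs2, -0.0430 to 0.17 for Igf1 and -0.15 to 0.0752 for Igfals, and with G108 -0.0925 to 0.0354 for Ghr. In the interaction they were -0.11 to 0.11 for Igf1, -0.11 to 0.0208 for Stat5b, -0.24 to 0.0335 for Igfals and -0.13 to 0.0138 for Ghr. Relations to the Mup sum ran from -0.17 to 0.16 for Ghr, -0.31 to 0.17 for Cish, -0.0380 to 0.25 for Stat5a, -0.0515 to 0.33 for Socs2 and -0.30 to 0.0572 for Jak2. For the Mup sum, 4 pairs of mice cannot reach 0.05 by permutation. With 1 of the compared mice left out, its exact permutation p before adjustment was 0.0286 throughout on SP, 0.0286 to 0.0571 on HP (-0.99 to -0.75) and 0.0286 to 0.0857 in HP against SP with G108 (0.56 to 0.81), where the lowest came without G108 SP mouse 1. Its differences kept their signs.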
